A study of Mus musculus with 6 samples.

Results

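The genes described here encode the enzymes that add methyl groups to histone lysines or remove them, apart from the enzymes of histone H4 lysine 20, and were chosen by name from a list of 39 genes grouped by the lysine they act on. Array probes whose gene name is a member's current or earlier symbol were found for 38 of the 39, as 65 probes, of which 62 passed the filter on dim probes, and all 38 genes were among the 14424 genes tested. The exception was Setd1b, which had no probe under its own name. The arrays measured G1E-ER-GATA-1 cells. This mouse erythroblast line has no functional Gata1 gene of its own and carries a fusion of GATA-1 with the hormone-binding part of the estrogen receptor, which β-estradiol activates to start erythroid maturation. Both groups received siRNA by nucleofection at 0 h and again at 24 h, received β-estradiol from 24 h and were harvested at 48 h, so both had 24 h of β-estradiol. The 3 control cultures received a non-targeting siRNA and the 3 others received siRNA against SetD8 (gene Setd8, also Kmt5a), the enzyme that monomethylates histone H4 lysine 20. All 6 samples come from 1 cell line, and nothing in the sources used here says whether replicates were separate transfections, so p-values measure the spread between these samples, which may be technical.

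Histone lysine methylation is set by writers, most of which carry a SET domain, and removed by erasers, which are either flavin-dependent amine oxidases or JmjC-domain oxygenases. The lysine decides the usual reading: H3K4, H3K36 and H3K79 methylation mark active promoters and transcribed gene bodies, whereas H3K9 and H3K27 methylation mark silenced chromatin. In erythroid cells the eraser Kdm1a (LSD1) works with the repressor Gfi1b, and the H3K27 writer is known to change its catalytic subunit from Ezh2 to Ezh1 as blood cells mature.

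Promoters are shown for the member that passed the test, Ehmt2, for its dimerization partner Ehmt1, and for the H3K27 writers Ezh1 and Ezh2, whose differences had opposite signs. Each is 250 bases before to 50 bases after an annotated start, from RefSeq on GRCm38.p6, 5′ to 3′ on the gene's strand, with motif matches in capitals. The windows are chr17:34898224-34898523 on the plus strand for Ehmt2, chr2:24919560-24919859 on the minus strand for Ehmt1, chr11:101226414-101226713 on the minus strand for Ezh1 and chr6:47594981-47595280 on the minus strand for Ezh2.
Ehmt2: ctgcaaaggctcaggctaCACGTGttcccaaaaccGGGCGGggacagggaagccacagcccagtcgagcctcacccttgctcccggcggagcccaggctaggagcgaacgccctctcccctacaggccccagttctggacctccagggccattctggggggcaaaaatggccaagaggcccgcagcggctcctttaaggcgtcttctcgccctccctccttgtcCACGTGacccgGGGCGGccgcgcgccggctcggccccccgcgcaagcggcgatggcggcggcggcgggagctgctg
Ehmt1: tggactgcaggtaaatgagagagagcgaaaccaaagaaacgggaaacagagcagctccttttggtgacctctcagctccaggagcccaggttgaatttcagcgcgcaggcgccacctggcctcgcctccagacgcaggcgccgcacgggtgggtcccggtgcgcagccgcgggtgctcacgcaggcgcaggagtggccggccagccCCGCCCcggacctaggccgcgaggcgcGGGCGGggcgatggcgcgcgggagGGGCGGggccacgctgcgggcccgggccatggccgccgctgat
Ezh1: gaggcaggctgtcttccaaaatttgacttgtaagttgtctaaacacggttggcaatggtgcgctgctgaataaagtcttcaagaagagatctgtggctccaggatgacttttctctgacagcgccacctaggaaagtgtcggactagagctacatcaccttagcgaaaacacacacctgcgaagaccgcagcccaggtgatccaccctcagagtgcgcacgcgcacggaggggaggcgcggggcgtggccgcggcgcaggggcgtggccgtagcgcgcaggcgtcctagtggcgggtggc
Ezh2: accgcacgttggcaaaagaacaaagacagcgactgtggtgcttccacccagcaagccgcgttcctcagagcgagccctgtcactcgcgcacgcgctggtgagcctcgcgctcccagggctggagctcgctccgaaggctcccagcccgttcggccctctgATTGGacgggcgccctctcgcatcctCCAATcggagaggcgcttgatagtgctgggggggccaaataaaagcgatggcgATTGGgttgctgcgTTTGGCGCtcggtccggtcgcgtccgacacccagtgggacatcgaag
The motifs searched on both strands, each counted on its own even where matches overlap, were the GC box GGGCGG, the CCAAT box CCAAT, an E2F-type site TTTNGCGC, the E-box CACGTG and the GATA-type site AGATAA. The Ehmt2 window holds 2 GC boxes and 2 E-boxes, the Ehmt1 window 3 GC boxes, the Ezh2 window 3 CCAAT boxes and 1 E2F-type site, and the Ezh1 window none of the 5 strings. Of the members, 27 matched the promoter table, with 37 windows. The GC box was in 24 of these 37 windows (64.9%) and in 35.7% of all 32851 windows of the table. The other strings were in shares closer to those of all windows: CCAAT in 35.1% against 37.4%, the E2F-type site in 2.7% against 1.4%, the E-box in 8.1% against 7.2% and the GATA-type site in 8.1% against 11.2%. These matches describe the letters in the windows and were not tested against the expression values.

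Values are log2 signal of 1-colour arrays, and each difference is the mean of the 3 SetD8 siRNA arrays minus the mean of the 3 control arrays. Values of single genes are given after normexp background correction and quantile normalization, and counts, medians and the values that change sign or move most are also given after scaling the processed signal to each array's 75th percentile. The control arrays did not share a background: 64.1%, 40.2% and 82.5% of spots were well above background on controls 1, 2 and 3, against 60.3% to 68.6% on the SetD8 siRNA arrays. Slide 1 held control 1 and SetD8 1 and 2, slide 2 held control 2 alone, and slide 3 held control 3 and SetD8 3. Control 2 was also scanned on another day than all the other arrays. All 10 erythroid markers were well above background on all arrays. Of the lists for other cell types, 4 of 6 megakaryocyte, 1 of 5 mast cell, 3 of 6 granulocyte or macrophage, 1 of 4 lymphoid and 1 of 4 stromal or endothelial markers were so. The summed linear signal of the megakaryocyte list was 8053 to 18470 on control arrays and 12310 to 26490 on SetD8 siRNA arrays, and its part in the results below was not tested.

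Setd8 itself was lower in the cells given its siRNA. The brighter Setd8 probe (chr5:124911883-124911942, mm9) read 11.50, 11.58 and 11.25 on the control arrays and 9.58, 9.26 and 9.25 on the SetD8 siRNA arrays. The groups did not overlap, and Setd8 fell by 2.08 ± 0.15 (log2, SE, n = 3 per group; limma adjusted p = 0.00843). The dimmer probe fell by 1.13 on the same scale, also with no overlap, but did not pass alone (limma adjusted p = 0.147 over all probes). An exact two-sided permutation test over the arrays gave p = 0.1 for each probe, the smallest that 3 against 3 allow. After 75th percentile scaling the brighter probe was lower by 2.23 with an adjusted p of 0.557 in limma, and its control SD was 0.86 there, against 0.17 after quantile normalization. With slide as a block its difference was -1.95 after 75th percentile scaling (limma adjusted p = 0.00606). The same block after quantile normalization gave -2.04 (limma adjusted p = 0.0434).

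Of the 38 measured methylation enzymes, 1 rose, none fell and 37 did not pass an adjusted p of 0.05 in the limma fit after normexp and quantile normalization. The background was 239 of 14424 genes called (1.66%), 203 of them higher (1.41%) and 36 lower (0.25%), so the members' share, 2.63%, stands on 1 gene. In that fit 2 members, Ehmt2 and Ezh2, had an unadjusted p under 0.05, whereas 15.9% of all genes did. The median difference over the 38 members was -0.09, against 0.03 over all genes, and the median size of the difference was 0.18 for both. The difference was under 0.3 in size for 33 of the 38. After 75th percentile scaling no member and no gene of the 14424 passed (0%), with 0 members and 3.5% of all genes at an unadjusted p under 0.05, and the members' median was -0.24 against 0.06 for all genes. The sign was the same in both settings for 29 of the 38. The other 9 were positive after quantile normalization and negative after 75th percentile scaling, where Kdm1b stood at -0.21, Setd7 at -0.13, Setd5 at -0.10, Setd3 at -0.05, Kdm5b at -0.04, Nsd1 at -0.03, Kdm2a at -0.02, and Kdm4a and Kdm6b between -0.01 and 0.

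**Figure D1:**
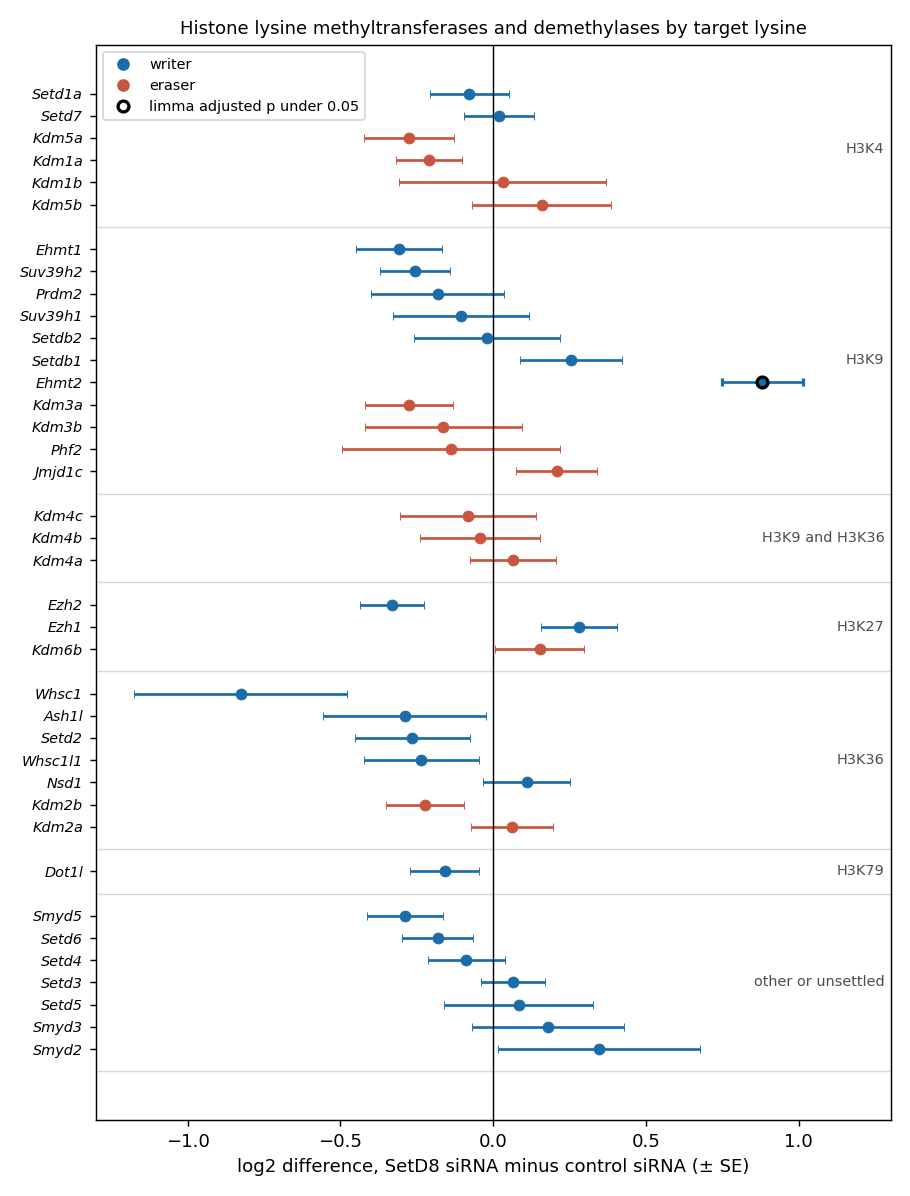
Difference of each of the 38 measured members, SetD8 siRNA minus control siRNA, on the log2 scale after normexp and quantile normalization. Points are fitted differences and bars their SE, blue marks writers and red erasers, rows are grouped by target lysine, and the black ring marks Ehmt2, the 1 member past an adjusted p of 0.05, at 0.88.

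Among the H3K9 writers, Ehmt2 (G9a), which mono- and dimethylates H3K9 in euchromatin, was higher in the SetD8 siRNA cells. Its probe (chr17:35050931-35050990, mm9) read 11.94, 11.79 and 12.06 on the control arrays and 12.67, 12.96 and 12.81 on the SetD8 siRNA arrays. Every SetD8 siRNA array lay above every control array, and the SDs were 0.14 among controls and 0.15 among SetD8 siRNA arrays. The rise was 0.88 ± 0.13 (log2, SE, n = 3 per group; limma adjusted p = 0.0375), or 1.84-fold, and 153rd of all genes by p. Within slides 1 and 3 it was 0.87 and 0.75. A fit with slide as a block gave 0.82 with a limma adjusted p of 0.135, and called 14 of all genes (0.0971%) and no member. After 75th percentile scaling Ehmt2 read 4.39, 4.69 and 3.87 on the controls and 4.86, 5.15 and 5.14 on the SetD8 siRNA arrays, so the groups again did not overlap. That difference was 0.73 with an adjusted p of 0.928 in limma, and the slide block in this scaling called 0.908% of all genes and no member. Over 16 alternative settings the Ehmt2 difference was positive in 16, between 0.70 and 0.95, with limma adjusted p from 0.00206 to 0.928 and 5 of them past 0.05. Ehmt2 has 1 probe on the array, so no other probe of the gene bears on it.

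Ehmt1 (GLP), which forms the active heterodimer with Ehmt2, did not pass the test. Ehmt1 read 10.06, 10.31 and 10.01 on the controls and 9.71, 9.75 and 9.99 on the SetD8 siRNA arrays. The groups just missed each other, with the highest SetD8 siRNA array 0.02 below the lowest control, and the difference of -0.31 ± 0.14 (SE, n = 3) had a limma adjusted p of 0.359. A second Ehmt1 probe gave -0.35, with overlap.

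The other H3K9 writers did not pass. Suv39h2, which trimethylates H3K9 in pericentromeric heterochromatin, read 10.99, 11.01 and 11.04 on the controls and 10.66, 10.70 and 10.91 on the SetD8 siRNA arrays. The 3 controls were nearly equal and all above the SetD8 siRNA arrays, and the difference was -0.26 ± 0.11 (SE, n = 3; limma adjusted p = 0.354). Its paralog Suv39h1 differed by -0.10 with overlap. Setdb1, the writer recruited by KRAB zinc finger proteins through Trim28, differed by 0.25, its relative Setdb2 by -0.02 and the PR-domain protein Prdm2 by -0.18. The H3K9 erasers Kdm3a, Kdm3b and Jmjd1c of the Kdm3 family differed by -0.28, -0.16 and 0.21, and Phf2 by -0.14, none past the test. In the H3K9 group as a whole 1 of 11 members rose, 8 differences were negative and 3 positive, with a median of -0.14.

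Jmjd1c, Setdb1 and Ehmt2 were therefore the 3 H3K9 enzymes with a positive difference, and only Ehmt2 had groups that did not overlap in that direction. The erasers that act on both H3K9 and H3K36, the Kdm4 family, lay near 0. Kdm4a read 11.02, 11.29 and 11.32 on the controls and 11.27, 11.13 and 11.43 on the SetD8 siRNA arrays, a difference of 0.06 ± 0.14 whose sign depended on the setting (-0.01 after 75th percentile scaling). Kdm4c read 9.11, 9.18 and 8.46 on the controls and 8.97, 8.61 and 8.92 on the SetD8 siRNA arrays, and Kdm4b differed by -0.04. The arrays of the 2 groups were interleaved for all 3 of these genes.

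**Figure D2:**
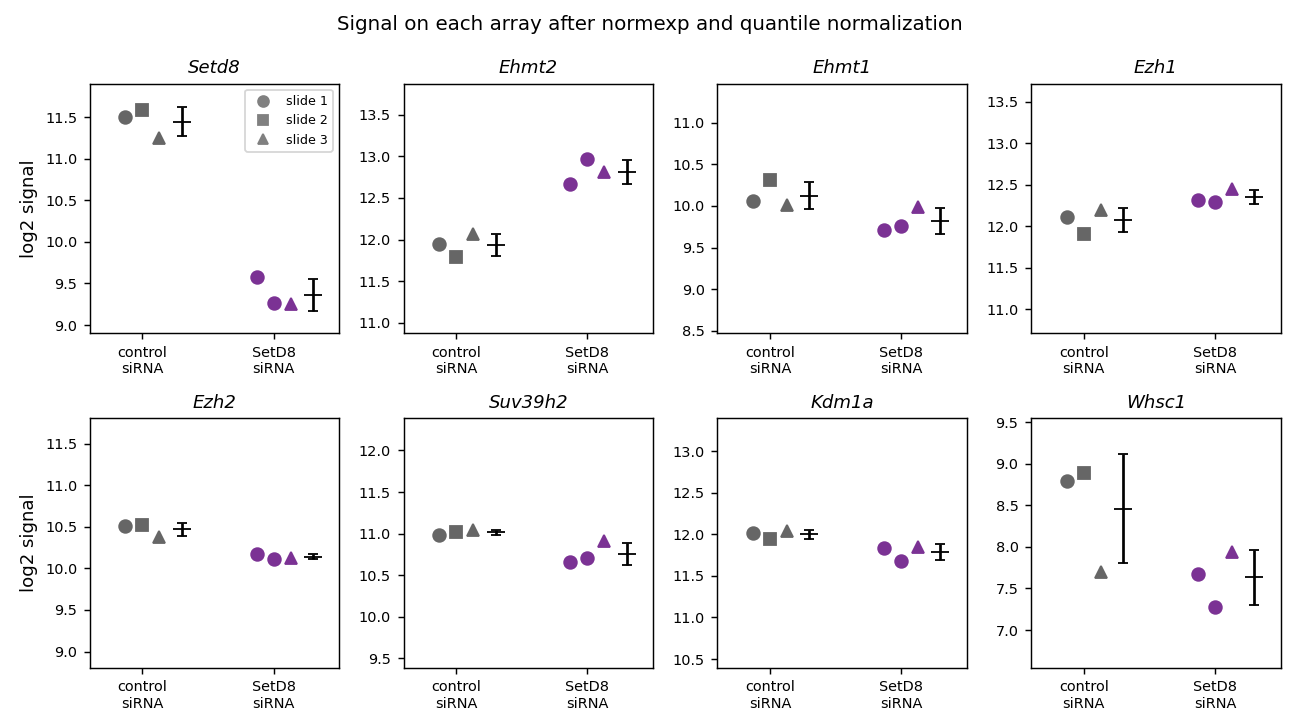
Log2 signal on each array for Setd8 and 7 of the enzymes after normexp and quantile normalization, with grey for control siRNA, purple for SetD8 siRNA and the marker shape for the slide; dashes with bars give the group mean and SD (n = 3). All panels span the same log2 range, and Ehmt2 rises by 0.88 with every SetD8 siRNA array above every control, whereas the third Whsc1 control lies among the SetD8 siRNA arrays.

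The H3K27 writers differed in opposite directions without passing the test. Ezh2, the catalytic subunit of Polycomb repressive complex 2 in dividing cells, read 10.51, 10.52 and 10.38 on the controls and 10.17, 10.11 and 10.13 on the SetD8 siRNA arrays. All SetD8 siRNA arrays were below all controls, and the difference was -0.33 ± 0.10 (SE, n = 3; limma adjusted p = 0.181). It was -0.36 within slide 1 and -0.25 within slide 3, and -0.52 with overlapping groups after 75th percentile scaling.

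Ezh1, the alternative catalytic subunit, which prevails in resting and maturing cells, read 12.11, 11.91 and 12.20 on the controls and 12.32, 12.29 and 12.45 on the SetD8 siRNA arrays. Here all SetD8 siRNA arrays were above all controls, by 0.28 ± 0.12 (SE, n = 3; limma adjusted p = 0.342), and by 0.17 with overlap after 75th percentile scaling. Its 4 probes were not of one sign: the 2 brighter gave 0.28 and 0.34 and the 2 dimmer gave 0.14 and -0.29. Taken within each array, Ezh1 minus Ezh2 was 1.60, 1.39 and 1.82 on the controls and 2.15, 2.18 and 2.32 on the SetD8 siRNA arrays. This within-array difference, which mixes the brightness of 2 probes and so gives no ratio of transcripts, was higher by 0.61 on the SetD8 siRNA arrays, and by 0.69 after 75th percentile scaling. It is given as a description, since it joins 2 genes noticed for their opposite signs. The H3K27 eraser Kdm6b differed by 0.15 with overlap.

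Among the H3K4 enzymes none passed. Kdm1a, which removes mono- and dimethyl groups, was bright and even: 12.02, 11.94 and 12.04 on the controls and 11.84, 11.68 and 11.85 on the SetD8 siRNA arrays. The groups did not overlap, and the difference was -0.21 ± 0.11 (SE, n = 3; limma adjusted p = 0.424). Kdm5a, which removes trimethyl groups, read 8.64, 8.98 and 8.59 on the controls and 8.46, 8.34 and 8.59 on the SetD8 siRNA arrays, with the third arrays of both groups alike and a difference of -0.28 ± 0.15 (limma adjusted p = 0.444). The erasers Kdm5b and Kdm1b differed by 0.16 and 0.03, and the writers Setd1a, of the COMPASS complex, and Setd7, a monomethyltransferase that also acts on other proteins, by -0.08 and 0.02. Of the 6 measured H3K4 members 3 differences were negative and 3 positive, with a median of -0.03, whereas after 75th percentile scaling all 6 were negative, with a median of -0.19.

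Setd1b, the paralog of Setd1a, could be read only outside the naming rule, from 2 probes that the files describe as SET domain containing 1B but name by a transcript, and these were looked up after the rule had left the gene out. The brighter (chr5:123617294-123617353, mm9) read 11.45, 11.59 and 11.58 on the controls and 10.89, 10.92 and 11.12 on the SetD8 siRNA arrays. The other (chr5:123599893-123599952) read 10.52, 10.40 and 10.30 on the controls and 9.58, 9.85 and 10.05 on the SetD8 siRNA arrays. On both probes every SetD8 siRNA array was below every control, with differences of -0.57 ± 0.13 and -0.58 ± 0.16 (SE, n = 3). Neither passed in a limma fit of all 30949 kept probes, with adjusted p of 0.166 and 0.243. That fit called 99 probes (0.32%), and the Ehmt2 probe did not pass in it either (limma adjusted p = 0.0798). Scaled to the 75th percentile, the groups overlapped on both probes, with differences of -0.74 and -0.80.

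The H3K36 enzymes had the lowest group median, -0.23 over 7 members, 5 of them negative and none past the test, and -0.38 with all 7 negative after 75th percentile scaling. Within slides 1 and 3 the group medians were -0.42 and 0.24, and 3 of the 7 kept 1 sign. After 75th percentile scaling the slide medians were -0.70 and 0.43, and 0 of the 7 kept 1 sign. Whsc1 (Nsd2), which dimethylates H3K36, read 8.79, 8.89 and 7.70 on the controls and 7.67, 7.28 and 7.94 on the SetD8 siRNA arrays. Control 3 lay among the SetD8 siRNA arrays and about 1 log2 unit below the other controls, so the difference of -0.83 ± 0.35 (SE, n = 3; limma adjusted p = 0.320), the most negative of the 38, rests on controls 1 and 2. It was -1.31 within slide 1 and 0.24 within slide 3, and -1.22 after 75th percentile scaling. The 4 kept Whsc1 probes gave differences from -0.83 to -0.37, all with overlapping groups. After 75th percentile scaling the dimmer kept probes at -0.976 and -0.525 had every control above every SetD8 siRNA array, and the other kept probes overlapped.

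The other H3K36 writers were the transcription-coupled trimethylase Setd2 (-0.26), the dimethylases Nsd1 (0.11), Whsc1l1 (-0.23) and Ash1l (-0.29), and all 5 writers had control 3 as their lowest control. The erasers were Kdm2a (0.06) and Kdm2b, which also brings a variant Polycomb complex to CpG islands. Kdm2b read 12.21, 12.34 and 12.00 on the controls and 12.03, 11.97 and 11.89 on the SetD8 siRNA arrays, overlapping at control 3, with a difference of -0.22 ± 0.13 (limma adjusted p = 0.485).

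Dot1l, the H3K79 writer, read 11.49, 11.63 and 11.52 on the controls and 11.26, 11.48 and 11.41 on the SetD8 siRNA arrays. The lowest control stood just above the highest SetD8 siRNA array, and the difference was -0.16 ± 0.11 (SE, n = 3; limma adjusted p = 0.595).

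The 7 SET-domain genes with other or unsettled targets did not pass. Smyd5, a SET and MYND domain protein, was dim and read 7.21, 7.37 and 7.22 on the controls and 6.84, 6.97 and 7.13 on the SetD8 siRNA arrays, without overlap (-0.29 ± 0.12; limma adjusted p = 0.333). Setd6, known for methylating the NF-κB subunit RelA, read 9.77, 9.90 and 9.63 on the controls and 9.58, 9.63 and 9.55 on the SetD8 siRNA arrays (-0.18 ± 0.12; limma adjusted p = 0.540). Control 3 and the second SetD8 siRNA array were alike, so the groups overlapped. Setd3, which methylates an actin histidine, differed by 0.07, Setd4 by -0.09, Setd5 by 0.08, Smyd3 by 0.18 and Smyd2, which also methylates p53, by 0.35. Smyd2 was the dimmest member and was well above background on 1 of 3 control arrays, the only one of the 38 not so on all 6 arrays. It passed the filter only through the SetD8 siRNA arrays.

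By role, 15 of 24 measured writers and 8 of 14 erasers had negative differences, with medians of -0.10 and -0.06, and 45.7% of all genes were negative. In the 75th percentile setting 19 of 24 writers and 13 of 14 erasers were negative, with medians of -0.243 and -0.242, against 45.8% of all genes. With slide as a block in that scaling 19 of the 38 members were negative, and their median was 0.0078. The groups of arrays did not overlap for 8 of the 38 (21.1%), 2 of them higher (Ehmt2 and Ezh1) and 6 lower (Ezh2, Ehmt1, Suv39h2, Kdm1a, Dot1l and Smyd5). The same held for 23.8% of all genes, 13.2% higher and 10.5% lower, so the members' share is near the background. In the 75th percentile setting it held for Ehmt2 alone of the 38 (2.63%), on the higher side, against 8.38% of all genes, 5.86% higher and 2.52% lower. These counts take the brightest probe of each gene. Of the 15 members with more than 1 kept probe, 5 had kept probes of both signs after quantile normalization. They were Ezh1, Kdm4a, Kdm5b, Setd3 and Smyd3, each with a positive brightest probe, so their sign depended on the probe. In the 75th percentile setting some dimmer kept probes of Whsc1, Dot1l and Setdb2 had groups that did not overlap, on the lower side.

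Much of the spread among members lay between the control arrays. Control 3 was the lowest control for 23 of the 38 (60.5%), against 48.1% of all genes, and after 75th percentile scaling for 94.7% against 61.3%. In that scaling control 2 was the highest of all 6 arrays for 34 members and control 3 the lowest for 30. The 11 members with a mean log2 signal under 9 had a median control SD of 0.515 and 9 of them had control 3 lowest. The 27 brighter members had a median control SD of 0.171, with control 3 lowest in 14. On the SetD8 siRNA arrays the median SD was 0.138 for the dim and 0.139 for the bright members.

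Within the slides that held both groups the members parted. Their median difference was -0.15 within slide 1 and 0.15 within slide 3, while over all genes it was 0.00 and 0.05. The sign was the same in both slides for 20 of 38 members, 19 of them among the 27 brighter ones and 1 among the 11 dim ones, and for 56.9% of all genes. The slide medians after 75th percentile scaling were -0.34 and 0.54, and 4 members (10.5%) kept 1 sign, against -0.09, 0.33 and 34.2% for all genes. Those 4, Ehmt2 and Setdb1 (positive) and Suv39h1 and Smyd5 (negative), had the same sign within both slides in both settings. On slide 2, which held 1 control and no SetD8 siRNA array, slide, scan day and group cannot be told apart.

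**Figure D3:**
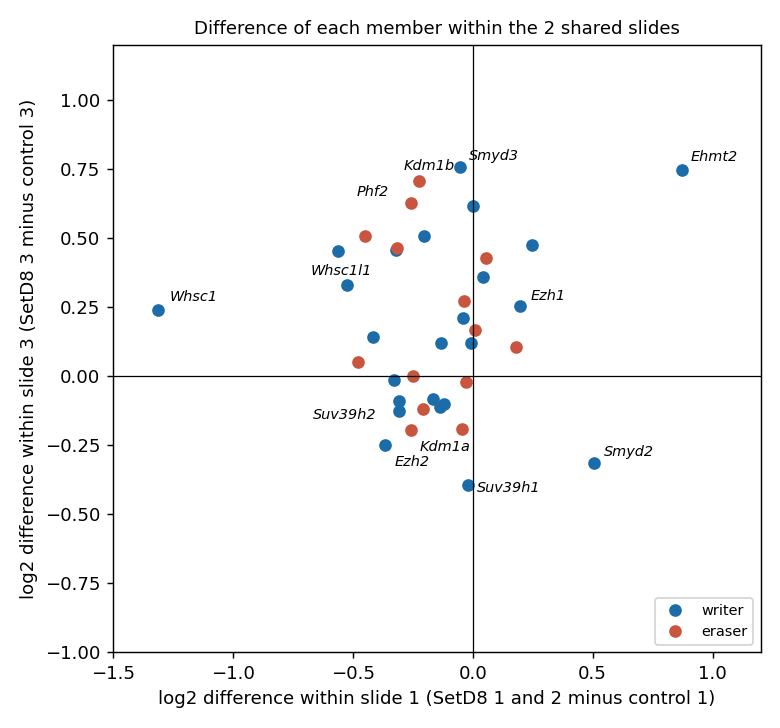
Difference of each of the 38 members within slide 1 (x axis, SetD8 1 and 2 minus control 1) against that within slide 3 (y axis, SetD8 3 minus control 3), log2 after normexp and quantile normalization, writers blue and erasers red. Ehmt2 lies apart at 0.87 and 0.75, and the members in the upper left, with Whsc1 at -1.31 and 0.24, change sign between the slides.

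The enzymes work in complexes, and 77 partner genes of the same complexes and families were listed, of which 66 were measured. Of these 1 rose and none fell after normexp and quantile normalization, against 1.41% and 0.25% of all genes, and 13 had an unadjusted p under 0.05. The share of all genes with such a p was 15.9%. The one that rose was Mllt3 (AF9), a reader of acylated histone H3 that brings Dot1l and the super elongation complex to genes. Mllt3 read 8.85, 8.83 and 8.72 on the controls and 9.66, 9.64 and 9.55 on the SetD8 siRNA arrays. The groups lay far apart relative to their spread, the rise was 0.82 ± 0.10 (log2, SE, n = 3; limma adjusted p = 0.0254), and within slides 1 and 3 it was 0.80 and 0.82. With slide as a block its limma adjusted p was 0.105. The mean of its kept probes gave 0.38 (limma adjusted p = 0.3), so the size of the rise depended on the probe. After 75th percentile scaling Mllt3 was at 0.78 (limma adjusted p = 0.928). Over the alternative settings Mllt3 stayed positive, passing 0.05 in 5 and not in 11.

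Most partner genes had negative differences without passing the test: 44 of 66 differences were negative, the median was -0.16, and the groups did not overlap for 18 lower and 3 higher genes (10.5% and 13.2% of all genes). Of all genes 45.7% were negative. In the 75th percentile setting 48 of 66 were negative with a median of -0.28, and the groups did not overlap for 3 lower and 1 higher (2.52% and 5.86% of all genes). Hdac2, among these lower genes, was well above background on 3 control arrays and 1 SetD8 siRNA array. It passed the filter only through the controls, so no direction is read from it. Paxip1, of the COMPASS list, was well above background on 2 of 3 control arrays and passed only through the SetD8 siRNA arrays. In COMPASS and the MLL complexes, which write H3K4 methylation, 12 of 15 were negative, with the shared core subunit Wdr5 at -0.42 (10.68, 10.74 and 10.71 on the controls and 10.32, 10.30 and 10.26 on the SetD8 siRNA arrays; limma adjusted p = 0.102). The cofactor Hcfc1 was at -0.53 (limma adjusted p = 0.131). Among H3K9 readers and cofactors 8 of 9 were negative, with Uhrf1, which couples hemimethylated DNA to Dnmt1, at -0.54 (limma adjusted p = 0.175), and Atf7ip, the partner that stabilises Setdb1, at 0.29 (adjusted p = 0.276 in limma).

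Other Polycomb and eraser partners did not pass either. Of PRC2, Suz12 stood at -0.54 (limma adjusted p = 0.179) and the histone-binding Rbbp7 at -0.37 (limma adjusted p = 0.164), and the 8 measured subunits had a median of -0.08. The 8 measured PRC1 subunits, of the complex that ubiquitinates histone H2A, had a median of -0.14, with Pcgf6 at -0.62 (limma adjusted p = 0.386) and Phc1 at 0.44 (limma adjusted p = 0.436), both with overlapping groups. Among partners of Kdm1a, the repressor subunit Hmg20b was at 0.32 (limma adjusted p = 0.238) and the deacetylase Hdac1 at -0.30 (limma adjusted p = 0.265). All 6 measured genes of the list of other H3 demethylases were negative, led by the JmjC protein Jmjd6 at -0.58 (10.42, 10.30 and 10.30 against 9.74, 9.66 and 9.88; limma adjusted p = 0.0664) and the H3K27 eraser Kdm6a at -0.36 (limma adjusted p = 0.203). The 7 other SET and PRDM genes had a median of 0.07, with Prdm4 at -0.23 and Smyd1 at 0.12, the 2 with the smallest p. Prdm9, Prdm10 and Prdm15 (0.02, 0.03 and 0.07) were well above background on 2 of 3 control arrays. They passed the filter only through the SetD8 siRNA arrays, and the median is the value of Prdm15, so no direction is read from it. The 5 Dot1l partners had a median of 0.05 (-0.12 after 75th percentile scaling), and Mllt10 (AF10), which stimulates Dot1l, stood at -0.35 (limma adjusted p = 0.308), opposite in sign to Mllt3. In the 75th percentile setting no partner gene passed. Alternatives of the quantile fit that called more of all genes also called some of these genes lower. Trend and robust moderation called Hcfc1, Jmjd6, Rbbp7, Uhrf1 and Wdr5, with 636 of 14424 genes called higher and 364 lower. Keeping probes detected on all arrays called Jmjd6, with 441 of 10821 genes called higher and 188 lower. The setting reported called 203 higher and 36 lower.

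**Figure D4:**
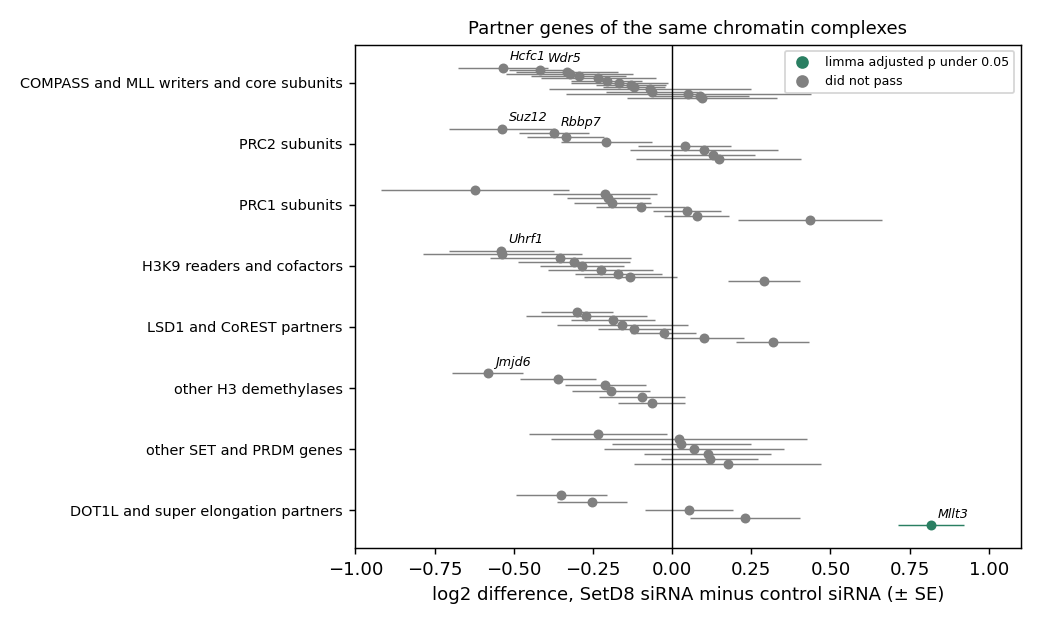
Log2 difference, SetD8 siRNA minus control siRNA, of the 66 measured partner genes by complex after normexp and quantile normalization; points are fitted differences, bars their SE, and green marks the 1 gene past an adjusted p of 0.05. Mllt3 stands alone on the right at 0.82, and most points of the COMPASS, H3K9 reader and other demethylase rows lie left of 0.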

How the data were processed

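The deposited files give linear intensity per spot of Cy3-labelled cRNA, extracted by the authors with Agilent Feature Extraction 10.7.3.1, and probe coordinates on mm9, per the file headers. The deposited series matrix holds the same intensity, unscaled between arrays. The submitters' processing notes name limma; the sources used here do not give how the authors normalized. Control spots and outlier spots were left out, replicate spots averaged (55681 probes), and probes named through RefSeq accessions and symbols of GRCm38.p6, with members' earlier symbols. Probes were kept if every array of either group had them well above background, and the brightest stood for its gene. Log2 processed signal minus each array's 75th percentile was the design's setting. Members are described after normexp (offset 50) on mean signal and median background, then quantile normalization, because the former called no gene. Since this choice followed the outcome, adjusted p-values in that setting do not carry the error rate of a setting fixed beforehand. limma 3.58.1 in R 4.3.3 tested 14424 genes, two-sided, with Benjamini-Hochberg adjustment at 0.05; it was tested on simulated data. Python 3.11.15, pandas 2.3.3, numpy 2.4.6 and matplotlib 3.10.9 were used.

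The members, partner lists and settings were chosen with earlier results of these data known. Values on every array are given for members past 0.05, the 2 with the smallest p in each lysine group, and Ezh1 and Ezh2. Ehmt1, outside that rule, is given so as the dimerization partner of Ehmt2. Partner genes are named if past 0.05 or among the 2 smallest p of a complex, or to state how they passed the filter. Alternatives changed the background correction, normalization, offset, filter, gene summary, moderation, slide or replicate block, and left out each array. The number of arrays, 3 per group, limits the precision.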

Additional observations from a re-analysis of the deposited data

How the results depend on the processing

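After normexp and quantile normalization 1 member (Ehmt2) was called; 0 were called with the 75th percentile of the processed signal, normexp with the 75th percentile, quantile normalization of the processed signal, an offset of 16, slide as a block, or every kept probe fitted, the last added after seeing the data. Leaving out each array gave 0 to 1 members, 1 without control 3 and 0 without any of the other 5 arrays. Partner genes, 1 in the setting reported, numbered 0 with either 75th percentile setting, quantile of the processed signal, the mean of kept probes or slide as a block, 2 with probes detected on all arrays (Mllt3 higher, Jmjd6 lower), 6 with trend and robust moderation (Mllt3 higher and 5 lower), and 0 to 1 leaving out each array. The median member difference was -0.243 and -0.2003 in the 75th percentile settings, without and with normexp, -0.024 with slide as a block, and -0.1815 to -0.0151 leaving out each array, the ends being without control 3 and without control 2; under 75th percentile scaling leaving out arrays gave -0.5092 to 0.0284, at the same 2 controls. Setd8 was -2.2253 (limma adjusted p = 0.557) with the 75th percentile and -2.1888 to -2.0097 leaving out each array, past the threshold without control 2 and without control 3 and not without any of the other 4. Of the named members, Kdm4a turned negative with the 75th percentile (-0.0051), normexp with the 75th percentile (-0.1063) and without control 1 (-0.0323) or SetD8 3 (-0.013). Kdm4c turned positive with slide as a block (0.0173) and without control 1 (0.012), control 2 (0.0503) or SetD8 2 (0.0305), and ranged from -0.3103 (without control 3) to 0.0503 leaving out each array. The cause was not tested. Of the 13 members picked by rule for values on every array, the other 11 kept their sign in all 16 alternatives. The rest of the members, Ehmt1 among them, were set against the 75th percentile alone. The replicate block gave 0 members, 0 partner genes and 0 of all genes called, and Setd8 at -2.0792 with a limma adjusted p of 0.14; same-numbered arrays did not deviate together (correlations 0.185, -0.252 and -0.193), so the numbers were not taken to pair samples. Of all genes, 203 were called higher and 36 lower in the setting reported, 636 and 364 with trend and robust moderation, 441 and 188 with probes detected on all arrays, 177 and 38 without control 3, 91 and 7 without control 2, 5 and 0 without SetD8 3, and none without control 1, SetD8 1 or SetD8 2. Dim members are limited by their signal over background.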
